A study of Homo sapiens with 2 samples.

Results

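Oxidative phosphorylation subunits encoded in the nucleus were picked from the deposited gene tables by symbol. Names beginning NDUFA, NDUFB, NDUFC, NDUFS or NDUFV with a digit, UQCR, COX4 to COX8, ATP5, and SDHA to SDHD gave 93 matches, and 5 pseudogene or antisense names were taken out. This left 88 genes of the 26506 features listed, and 81 of them reached 1 CPM (a count scaled to library size) in at least 1 library. The cells were an established human corneal epithelial line (ATCC CRL-11515), grown for 72 hours in keratinocyte serum-free medium (KSFM) or in a special medium made of DMEM/F12 with calcium chloride at 1 mM, fetal bovine serum at 10%, EGF at 10 ng/mL, and antibiotic and antimycotic. For each medium, poly(A) RNA of 3 cultures was combined into 1 library, giving 2 libraries of 21604652 (KSFM) and 16900472 (special medium) counts. The comparison therefore has no replicate spread and no test. Both libraries come from a single line. The special medium differs from KSFM at least in basal medium and serum, the calcium and EGF content of KSFM is not given in the sources used here, and the contributions of the components cannot be told apart. The series title names membrane-associated mucins as the subject of the study, so these genes are a readout alongside its main question.

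Oxidative phosphorylation is carried out by 5 complexes of the inner mitochondrial membrane. Complex I takes electrons from NADH and complex II from succinate, ubiquinone carries them to complex III, cytochrome c carries them to complex IV, and complex IV passes them to oxygen. The proton gradient built on the way turns complex V, the ATP synthase. Complexes I, III and IV each have a catalytic core, which holds the flavin, iron-sulfur clusters or haems. A larger number of small supernumerary subunits surround that core and serve assembly and stability. Complex II has catalytic subunits and membrane anchors only. Complex V has a catalytic head with the nucleotide sites, a c ring, a peripheral stalk and membrane subunits. The subunits encoded in mitochondrial DNA were not analysed here. Corneal epithelium is also known for its glycolytic metabolism.

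In the special medium 8 of the 81 measured subunit genes were lower and 0 were higher. A gene was called when it reached 1 CPM in either library, differed by 2-fold or more, and had a 95% interval that left out equality. That interval is exact (Clopper-Pearson, given the summed counts of both libraries) and covers counting error only. The 8 genes are 9.88% of the set. Of all 13632 features measured, 6.77% were lower by the same rule and 9.86% were higher. The share of lower genes thus lay near the background, while the higher genes were absent from the set. At a 1.5-fold limit, 31 subunit genes (38.3%) were lower and 0 were higher, against 16.1% lower and 18.7% higher among all features.

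The shift was broad and of moderate size. The log2 ratio, taken throughout as special medium over KSFM, had a median of −0.45 over the 81 genes, a 1.37-fold lower value, and of −0.00 over all features. Of the 81 ratios, 65 lay below equality and 16 above it. The counting interval was wholly below equality for 61 genes and wholly above it for 11. The lowest ratio was −1.41 (NDUFA4), and the middle of the set, between its lower and upper quartile, ran from −0.74 to −0.10. In bulk RNA a lower value cannot be told apart from fewer cells that express the gene.

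**Figure D1:**
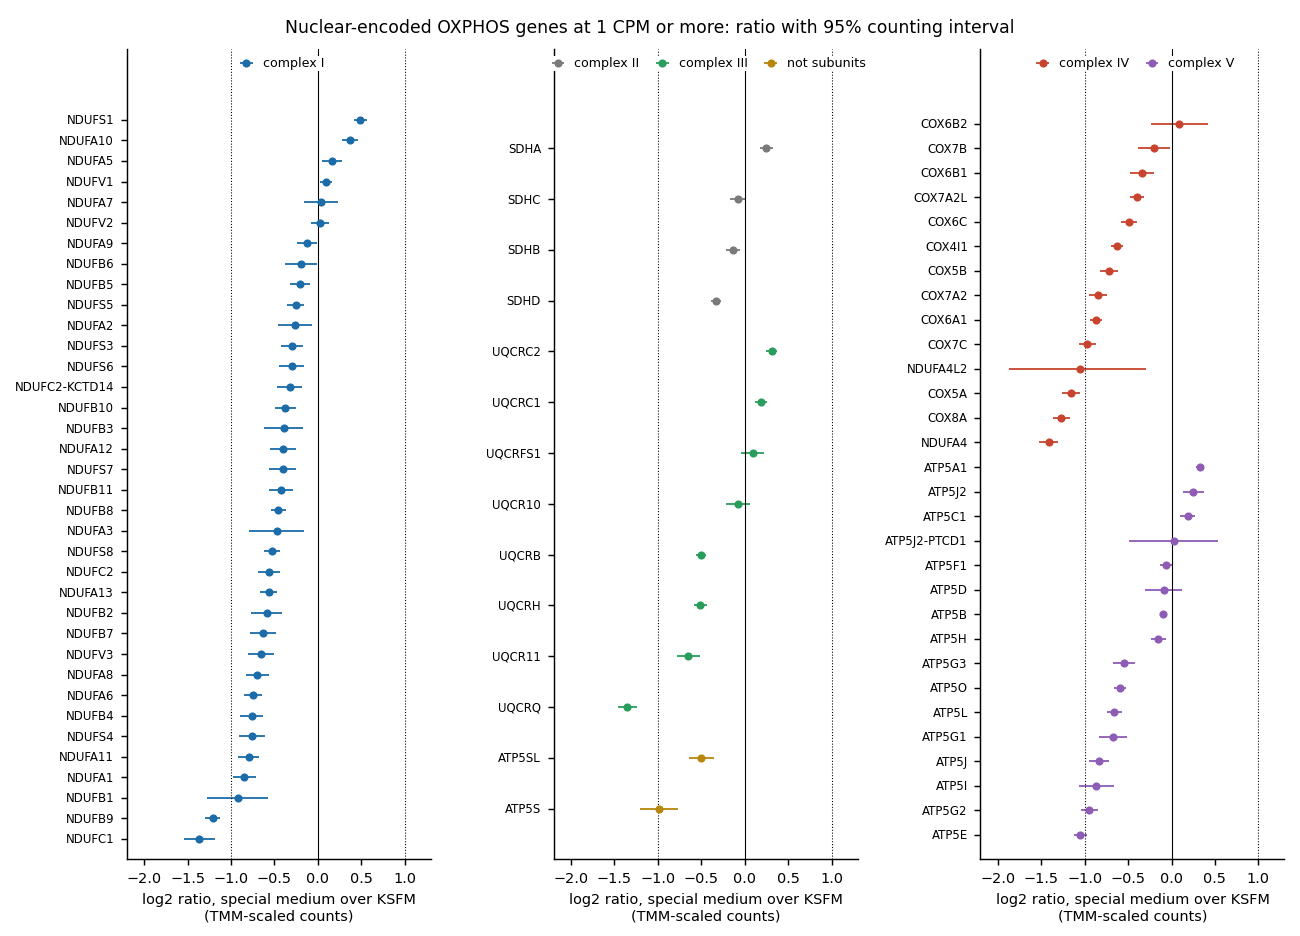
Each point is 1 of 80 subunit genes at 1 CPM or more, placed by its log2 ratio of special medium over KSFM from TMM-scaled counts, with its exact 95% counting interval as a bar; dotted lines mark 2-fold. Within each complex most genes lie left of equality, the 8 lower genes pass the left dotted line, and no gene reaches the right one.

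As levels per transcript length, the whole set summed to 19270 TPM (a length-adjusted share of all transcripts) in KSFM and 15827 TPM in the special medium. That is 1.93% and 1.58% of all TPM. The median level was 166.74 TPM in KSFM and 152.56 TPM in the special medium, far above the medians over all measured features of 17.88 and 20.70 TPM. These are abundant messages. Taken gene by gene, the median log2 ratio of TPM + 1 over the members was −0.21. With the median over all measured features subtracted it was −0.36.

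**Figure D2:**
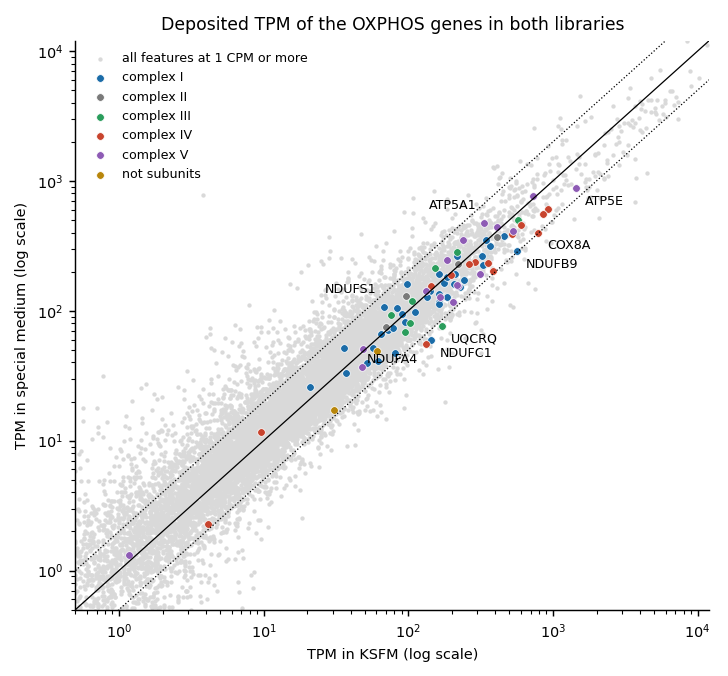
Deposited TPM of each gene in KSFM (x axis) and in the special medium (y axis), both on log scales, with all features at 1 CPM or more in grey; the solid line is equality and the dotted lines are 2-fold. Most subunit genes sit between 20 and 1000 TPM, close to or just under the line of equality, with NDUFA4, NDUFC1 and UQCRQ under the lower dotted line.

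In complex I, the NADH dehydrogenase, medians on counts differed by the role of the subunits, though single genes of the roles overlapped. All 37 of its symbols were measured, with a median log2 ratio of −0.40. Of these, 2 were lower (5.41%, against 6.77% of all features) and 0 higher. The 7 core subunits, which as a group hold the flavin and the iron-sulfur clusters, had a median of 0.03. None was lower even at 1.5-fold. The 29 supernumerary subunits had a median of −0.47. At 2-fold 2 of them were lower (6.90%), and at 1.5-fold 12 (41.4%, against 16.1% of all features). With a trend on transcript length over all features removed, as described below, the core and supernumerary medians were 0.08 and −0.02. NDUFC2-KCTD14, a read-through name, is the remaining symbol.

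Core and accessory subunits were both found above equality in complex I. NDUFS1, the largest core subunit and carrier of several iron-sulfur clusters, had 2671 and 2939 counts in KSFM and the special medium, 67.45 and 106 TPM, and a log2 ratio of 0.49 (0.41 to 0.56). NDUFA10, an accessory subunit of the membrane arm related to nucleoside kinases, had 2024 and 2049 counts and a log2 ratio of 0.37. Both intervals lay above equality, and neither gene reached 2-fold. NDUFV1, which carries the flavin and binds NADH, was near equality at 0.09, as was NDUFV2 at 0.03, while the core subunits NDUFS3, NDUFS7 and NDUFS8 lay at −0.30, −0.40 and −0.53.

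The lowest complex I genes were small accessory subunits. NDUFC1, a single-pass membrane subunit, fell from 1114 counts in KSFM to 339 counts, and from 142.95 to 59.12 TPM. It was 2.58-fold lower (2.28 to 2.92). NDUFB9, a LYR-motif subunit that binds the mitochondrial acyl carrier protein, had 4122 and 1394 counts, 561.51 and 286.38 TPM, and was 2.32-fold lower (2.18 to 2.47). NDUFB9 was the complex I gene with the highest TPM in KSFM and lost that place in the special medium to NDUFA13 at 376.21 TPM. NDUFB1, on only 237 and 98 counts, had a log2 ratio of −0.92 with an interval from −1.28 to −0.58, and did not pass the 2-fold rule.

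The NDUFB genes, which build much of the distal membrane arm, all went one way on counts. All 11 lay below equality with intervals that excluded it, from −1.21 (NDUFB9) to −0.19 (NDUFB6), with a median of −0.45. With the trend on transcript length removed their median was −0.02. NDUFB2, NDUFB6 and NDUFB10 then lay above equality, at 0.13, 0.10 and 0.05, and the rest below it. Of the 12 NDUFA genes assigned to complex I, 9 lay below and 3 above equality, from −0.85 (NDUFA1) to 0.37 (NDUFA10). NDUFC2 and its read-through name NDUFC2-KCTD14 share exons, and the division of reads between them is uncertain. Summed, they had 2427 and 1380 counts and a log2 ratio of −0.46.

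Complex II, succinate dehydrogenase, has 4 subunits and also works in the tricarboxylic acid cycle. None passed either limit, and the median log2 ratio was −0.10. SDHA, the flavoprotein that oxidises succinate, had 3041 and 2837 counts, 96.64 and 128.85 TPM, and a log2 ratio of 0.25 (0.18 to 0.32). SDHB, the iron-sulfur subunit, lay at −0.13, and SDHC, a membrane anchor, at −0.07 with an interval that included equality. SDHD, the other anchor and the most abundant of the 4 at 408.18 and 371.16 TPM, lay at −0.33 (−0.39 to −0.27).

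Complex III, the cytochrome bc1 complex, had 8 measured genes with a median of −0.29 and 1 lower gene (12.5%, against 6.77% of all features). The lower gene was UQCRQ, a small subunit of the membrane part. It had 2974 and 913 counts, 169.99 and 75.73 TPM, and was 2.55-fold lower (2.37 to 2.75). UQCRC1 and UQCRC2, core proteins by name, lay on the other side of equality. UQCRC2 had 3778 and 3674 counts and a log2 ratio of 0.31, and UQCRC1 a ratio of 0.19, both with intervals above equality. UQCRFS1, the Rieske iron-sulfur protein, lay at 0.09 with an interval that included equality. CYC1, the cytochrome c1 of this complex, is outside the symbol rule and lay at −0.64. Between these ends stood UQCR10 at −0.07, UQCRB at −0.50, the hinge protein UQCRH at −0.51, and UQCR11 at −0.65. UQCRH held the highest level of the complex in both libraries, at 572.3 and 495.8 TPM.

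Complex IV, cytochrome c oxidase, stood lowest. Its catalytic subunits are encoded in mitochondrial DNA, so its genes here are mostly small subunits around that core. COX7A2L, a supercomplex factor, and NDUFA4L2, a paralog of NDUFA4, are counted with them. The 14 measured genes had a median log2 ratio of −0.78, and 13 of 14 lay below equality. At 2-fold 4 were lower (28.6%, against 6.77% of all features), NDUFA4L2 among them. At 1.5-fold 9 were lower (64.3%, against 16.1%). The summed level of complex IV was 5474 TPM in KSFM and 3735 TPM in the special medium. That is a larger drop than the sums of complex I (6209 and 5259 TPM) or complex V (5211 and 4536 TPM).

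COX8A, the ubiquitous form of the smallest membrane subunit, had 3822 and 1245 counts and 785.99 and 400.41 TPM. It was 2.41-fold lower in the special medium (2.26 to 2.57). COX5A, a matrix-side subunit that binds thyroid hormone metabolites, had 3064 and 1078 counts, 386.38 and 204.04 TPM, and was 2.23-fold lower (2.08 to 2.39). COX6A1, at 924.63 and 610.38 TPM the most abundant complex IV gene in both libraries, lay at −0.87, and COX7C at −0.97, just short of the limit. COX4I1, the largest nuclear-encoded subunit, lay at −0.63 on 5193 and 2628 counts. COX6B2, the testis form of a subunit facing the intermembrane space, was the single complex IV gene above equality, at 0.09 on 176 and 147 counts, with an interval from −0.23 to 0.42.

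Several complex IV subunits have paired isoform genes. COX4I2, COX6A2, COX7A1, COX7B2 and COX8C, known as lung, muscle and heart, or testis forms, had 0 counts in both libraries. A count of 0 allows up to 3 counts, or 0.139 CPM in the KSFM library and 0.177 CPM in the other. Their ubiquitous partners COX4I1, COX6A1, COX7A2, COX7B and COX8A were all measured, at log2 ratios of −0.63, −0.87, −0.85, −0.20 and −1.27. The COX6B pair was the exception, with both genes measured: COX6B1 had 1156 and 718 counts, 198.17 and 189.05 TPM, and its testis partner COX6B2 stood at 9.54 and 11.57 TPM. COX7A2L, a supercomplex factor related to COX7A2, lay at −0.40. UQCRHL, a copy of UQCRH, and ATP5L2, a copy of ATP5L, were also at 0 counts in both libraries, which makes 7 symbols without any count. Reads of such near-identical copies may have been assigned to the parent gene.

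NDUFA4 had the lowest ratio of all 81 genes. Named as a complex I gene, it is now placed in complex IV. It had 3030 and 893 counts, 131.51 and 55.88 TPM, and was 2.66-fold lower (2.47 to 2.87). Its hypoxia-inducible paralog NDUFA4L2 was barely expressed, with 53 and 20 counts and 4.13 and 2.28 TPM. NDUFA4L2 was 2.08-fold lower with a wide interval (1.22 to 3.67).

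Another paralog, C15orf48 (COXFA4L3 in RefSeq), is outside the symbol rule and was chosen for mention after its values were seen. Its protein is known to take the place of NDUFA4 in complex IV in inflamed cells. C15orf48 had 54 and 338 counts, 6.02 and 57.01 TPM, and was 7.98-fold higher (5.98 to 10.8). It made up 4.38% of the summed TPM of NDUFA4 and C15orf48 in KSFM and 50.5% in the special medium. The level of NDUFA4 was 21.8 times that of C15orf48 in KSFM and 0.98 times in the special medium, so the pair went from a large excess of NDUFA4 to near parity.

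**Figure D3:**
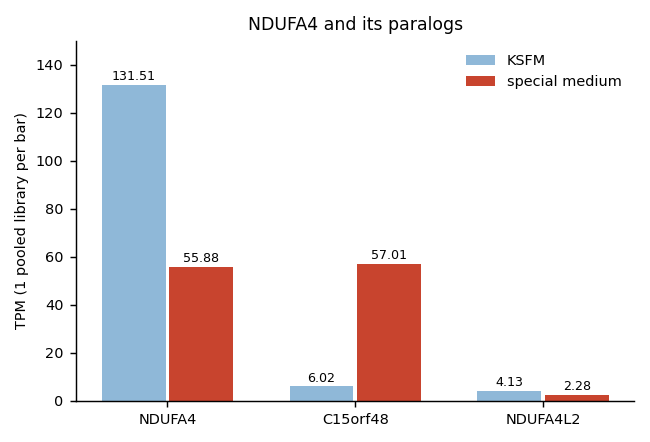
Deposited TPM of NDUFA4 and its paralogs C15orf48 and NDUFA4L2, 1 bar per pooled library, with no error bars because there are no replicates. NDUFA4 drops from 131.51 to 55.88 TPM while C15orf48 climbs from 6.02 to 57.01 TPM, and NDUFA4L2 stays under 5 TPM.

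The C15orf48 transcript is also the host of miR-147b, and NDUFA4 is a known target of that microRNA. The mature strand and the matching site in the 3′ UTR of NDUFA4 are shown for reference. Capitals mark the seed (bases 2 to 8) in the microRNA and its complement, CCGCACA, in the UTR.
hsa-miR-147b-3p: gUGUGCGGaaaugcuucugcu
NDUFA4 3′ UTR site: tccagaagccacatCCGCACAa
The microRNA lies at chr15:45433098-45433118 on the plus strand (GRCh38.p14, sequence from RefSeq). The site lies at chr7:10933573-10933594 on the minus strand (GRCh38, GENCODE release 29), and its seed match starts 56 bases after the stop codon in a 3′ UTR of 1685 bases. NDUFA4 was the single member with this match, 1 of 85 with a 3′ UTR (1.18%), against 386 of 18769 coding genes (2.06%). The 3′ UTRs of the members are short, with a median of 202 bases against 803. A seed match is a description of letters. The mature microRNA was not measured by these poly(A) libraries, its hairpin row had 0 counts in both, and its part in the level of NDUFA4 was not tested.

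Complex V, the ATP synthase, had 16 measured genes with a median of −0.35. Of these, 1 was lower (6.25%, against 6.77% of all features) and 0 higher. The 5 genes of the F1 head had a median of −0.09. ATP5A1 (ATP5F1A), the alpha subunit, had 7116 and 6993 counts, 331.6 and 470.55 TPM, and a log2 ratio of 0.33, the highest of the complex. ATP5B, the catalytic beta subunit, lay at −0.10 on 14858 and 10872 counts, the most counts of any member, and ATP5C1, the gamma shaft, at 0.19. The lower gene was ATP5E (ATP5F1E), the small epsilon subunit at the foot of the shaft. ATP5E had 5874 and 2226 counts and was 2.07-fold lower (1.97 to 2.17). It was also the member with the highest TPM in both libraries, at 1443.49 in KSFM and 874.64 in the special medium.

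On counts, the c ring and most membrane genes of the ATP synthase lay lower than the median of the head. The c ring, which turns with the proton flow, is made of 1 protein encoded by 3 genes. ATP5G2, ATP5G1 and ATP5G3 lay at −0.95, −0.67 and −0.55, and summed they went from 5307 to 2428 counts, a log2 ratio of −0.78 (−0.85 to −0.71). The 4 peripheral stalk genes ran from −0.83 (ATP5J) to −0.06 (ATP5F1) with a median of −0.37. Of the membrane accessory genes, ATP5I lay at −0.86 and ATP5L at −0.66. ATP5J2 lay at 0.25, and 0.24 with its read-through name ATP5J2-PTCD1 added. With the length trend removed the median of the 3 membrane accessory genes went from −0.66 to 0.21, level with the F1 median of 0.21, and ATP5I turned from −0.86 to 0.21, while the c ring median stayed at −0.67. ATP5S and ATP5SL match the symbol rule but are not subunits of the enzyme, and they lay at −0.99 and −0.50. ATP5S, COX7C and ATP5G2 were the members just short of the 2-fold limit, and ATP5E and NDUFA4L2, at −1.05 and −1.06, those just past it.

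Length matters for reading the whole set. The median coding sequence was 459 bases in the members and 1434 bases over all features, and the median effective length was 0.270 of that of the typical feature. The complex I core is longer than its accessory subunits, with median coding sequences of 792 and 435 bases. Of the 81 members, 54 fell in the shortest 10% of all measured features. All features in that shortest class, the members included, had a median log2 ratio of −0.42, and 18.9% of them were lower. The class was not divided by function. The members among them had a median of −0.52, with 6 of 54 lower. Over the 81 members the log2 ratio went with log2 effective length with Pearson's r of 0.42 and Spearman's rho of 0.42. Over all features these were 0.11 and 0.15. Both are across genes that share the same pair of libraries, and genes are not replicates. GC content was alike, with a median of 49.1% in the members and 49.5% over all features.

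With a smooth trend on length removed over all features, the median of the members was −0.07, and that of all features −0.08. Then 4 members were lower (NDUFA4, NDUFC1, UQCRQ and ATP5S), while COX8A went to −0.57, ATP5E to −0.20, COX5A to −0.80 and NDUFB9 to −0.81. Complex IV kept the lowest median of the 5 complexes, at −0.27. The complex I core and supernumerary medians were 0.08 and −0.02 on this scale, a smaller gap than the 0.03 and −0.47 before. The count assigned per TPM also differed between the libraries for short transcripts, by a median of −0.05 on the log2 scale over the members. Whether length in library preparation or assignment plays a part in the ratios was not tested.

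**Figure D4:**
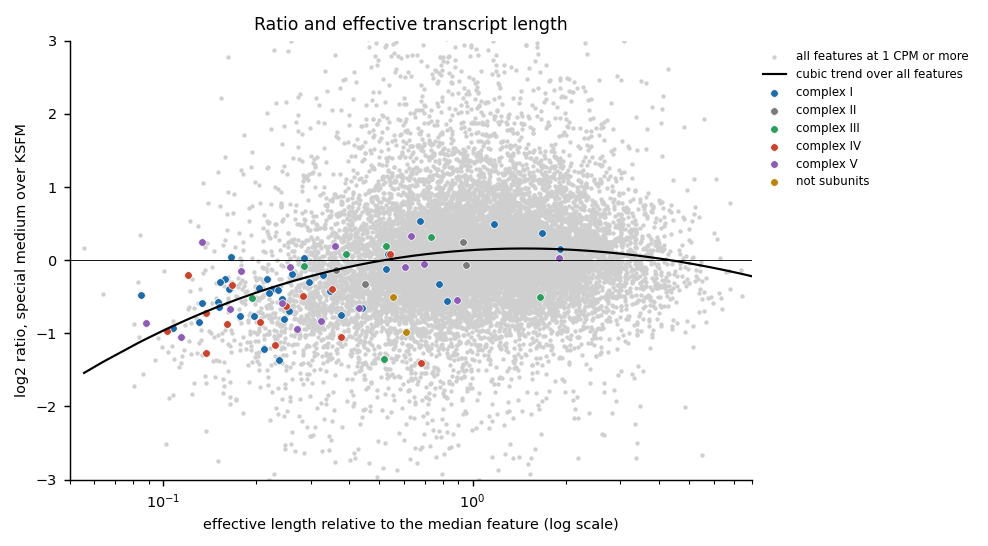
Log2 ratio of special medium over KSFM (y axis) against effective transcript length relative to the median feature (x axis, log scale), with all features in grey and their cubic trend as a line. Most members lie at short lengths, where the trend falls below equality, and NDUFA4 and UQCRQ lie well under it at middle lengths.

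On TPM the picture moved in the same way. Without centring, the median over all features was 0.15 on the log2(TPM + 1) scale, and the members had a median of −0.21, with 3 lower (NDUFA4, NDUFC1 and UQCRQ). Centred on all features, the members lay at −0.36 with 6 lower. Cytosolic ribosomal protein symbols, also short and very abundant, took 26.8% of all TPM in KSFM and 18.7% in the special medium. These are 101 symbols picked by name, some without a coding sequence, and their part in this offset was not tested.

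Genes around the chain were read from lists of related genes. Of 49 assembly factors, 7 were lower (14.3%, against 6.77% of all features) and 0 higher, with a median of −0.37. C17orf89 (NDUFAF8) and NDUFAF3, both complex I assembly factors, lay at −1.63 and −1.44, COX17, the copper chaperone of complex IV, at −1.35, and UQCC2, an assembly factor of complex III, at −1.24. COX17 did not pass with the length trend removed, at −0.46. Of 11 measured regulators of mitochondrial biogenesis, 1 was lower (9.09%, near the 6.77% of all features). The lower gene was POLRMT, the RNA polymerase of mitochondrial DNA, at −1.01 (1154 and 450 counts). On log2(TPM + 1), POLRMT lay at −0.80, and at −0.95 with centring, and did not pass. The median of these regulators was −0.23, and PPARGC1A, the PGC-1 alpha gene, had 0 and 2 counts.

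The tricarboxylic acid cycle, which feeds the chain, lay on the other side of equality. Its 14 enzymes had a median log2 ratio of 0.35, with 11 above equality and none past 2-fold in either direction. The 2 most abundant, IDH2 and MDH2, lay at 0.49 and 0.34, with IDH2 at 163.47 TPM in KSFM and 256.7 TPM in the special medium. Of 16 genes for other electron entry and carriers, 3 were higher (18.75%, against 9.86% of all features) and 0 lower. This list was mixed, with a median of −0.22, 9 genes below equality and 7 above it. At 1.5-fold, 3 were higher and 4 lower. ETFB and ETFDH, which bring electrons from fatty acid oxidation to ubiquinone, were 2.56-fold and 2.34-fold higher, on 337 and 677 counts for ETFB and 227 and 416 for ETFDH. ADCK3 (COQ8A), needed to make ubiquinone, was 2.45-fold higher. In the same list, CYCS, cytochrome c itself, lay at −0.91 on 7792 and 3252 counts, CYC1, the cytochrome c1 of complex III, at −0.64, and NDUFAB1, the acyl carrier protein of complex I, at −0.78.

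Other ATP synthase genes carry older names that the symbol rule does not match. C14orf2 (ATP5MJ) was 2.02-fold lower (1.80 to 2.27) on 1047 and 406 counts, USMG5 (ATP5MK) lay at −0.67, and ATPIF1, the inhibitor of the enzyme, at 0.07. C14orf2 did not pass on TPM (−0.75 to −0.92) or with the length trend removed (−0.54), and USMG5 turned to 0.13 with that trend removed. With these 3, CYC1 and NDUFAB1 added and the non-subunits and read-through names left out, 9 of 82 genes were lower and the median was −0.48.

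**Figure D5:**
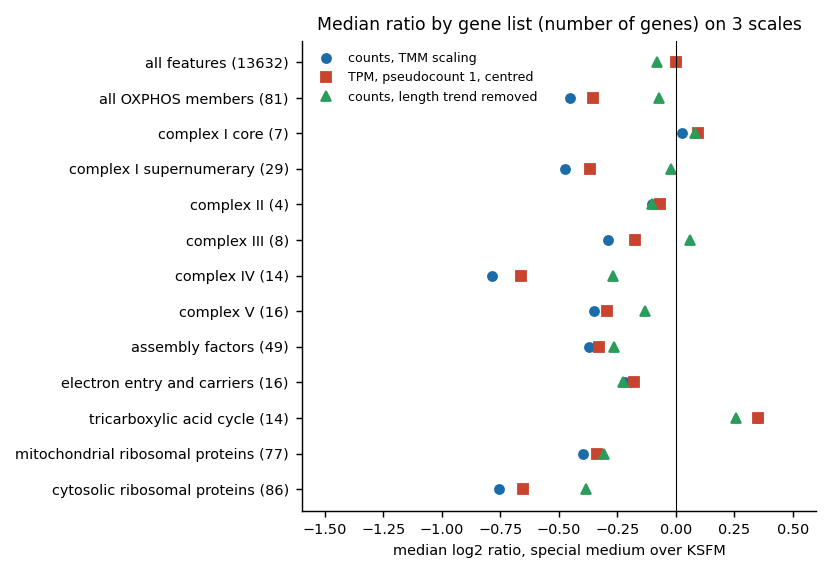
Median log2 ratio of special medium over KSFM for each gene list (number of measured genes in brackets) on 3 scales: TMM-scaled counts, log2(TPM + 1) centred on all features, and counts with the length trend removed. Complex IV is the lowest complex on each scale, the complex I core stays above 0, and the tricarboxylic acid cycle genes are the highest list.

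The 2 most similar families of short, abundant messages went the same way. Of 77 mitochondrial ribosomal protein genes, 10 were lower (13.0%, against 6.77% of all features) and 0 higher, with a median of −0.40. Of 86 measured symbols of cytosolic ribosomal proteins, 29 were lower (33.7%) and 0 higher, with a median of −0.76. Only 82 of these 86 had an annotated coding sequence, so the symbol match took in some names without one. With the length trend removed these medians were −0.31 and −0.38, both further below equality than the −0.07 of the oxidative phosphorylation set, so nothing particular to the latter follows from its median.

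Promoters were searched for the motifs of factors known to act on many of these genes. In the 250 bases before each RefSeq start (GRCh38.p14, both strands), the NRF1 half-site GCATGCGC was found in 13 of 67 matched members (19.4%) and in 3.22% of 27305 genes. The ETS core CCGGAAG, bound by GABPA, was found in 17 of 67 (25.4%) against 10.2%, and AANATGGC, a YY1 motif, in 6 of 67 (8.96%) against 4.71%. A gene with several starts counted once. Of the 7 lower members matched, none had the NRF1 half-site, 2 had the ETS core and none the YY1 motif. Of 13 matched members above equality, 2, 2 and 1 had them. Windows of 30 bases are shown for the 2 lower members with an ETS core, the 2 members above equality with one, and the 2 above equality with an NRF1 half-site, and then for SDHD, which has both. Capitals mark each match, the sequence is on the strand of the gene, and a palindromic NRF1 site reads as overlapping half-sites.
COX8A, ETS, chr11:63974590-63974619: ccagctccagaaCTTCCGGccagcgcagcc
UQCRQ, ETS, chr5:132866577-132866606: aatggtatctcCCGGAAGttacctcacgac
ATP5A1, ETS, chr18:46098326-46098355: gaggggcagtaCTTCCGGgtcaggtgggcc
NDUFS1, ETS, chr2:206159583-206159612: ggctggggccaCTTCCGGcggaactgcggg
ATP5C1, NRF1, chr10:7788144-7788173: ggggagcttcgGCGCATGCGCgctgaggcc
NDUFA5, NRF1, chr7:123557958-123557987: gtatgcccatcGCGCATGCgtcaatttttc
SDHD, NRF1, chr11:112086752-112086781: cagctgtgtttGCGCATGCGCgacgggtgt
SDHD, ETS, chr11:112086785-112086814: ccgcctctcgaCTTCCGGttcacccagcat
The ETS core stands 18 bases before the start in COX8A and 54 bases before it in UQCRQ, and both genes were lower. It stands 48 and 157 bases before a start in ATP5A1 and NDUFS1, whose ratios were 0.33 and 0.49. The same letters thus occur in genes at both ends of the range, and a match is no evidence that a factor was bound.

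The label of the cells was checked against marker genes. Epithelial CDH1 and EPCAM were abundant (10937 and 6849 counts for CDH1, 5732 and 5915 for EPCAM), KRT5 had 1779 and 921 counts and PAX6 69 and 73, but the corneal keratins KRT12 (0 and 0) and KRT3 (0 and 1) were absent or nearly so. Of 11 corneal markers 6 were measured, with summed levels of 882 and 847 CPM, most of it from CDH1 (507 and 405 CPM) and EPCAM (266 and 350 CPM). KRT15, a basal and limbal keratin, was the 1 marker past the 2-fold rule, with 60 and 160 counts (log2 ratio 1.77, 1.33 to 2.22), and its part in the ratios of the members was not tested. KRT14, TP63 and ALDH3A1 had 14 counts or fewer in each library. Summed stromal markers were at 8.11 and 9.10 CPM, mostly COL1A1 (166 and 143 counts), with KERA and LUM at 0. Endothelial markers were at 0.834 and 1.60 CPM. Melanocyte markers were at 4.54 and 6.38 CPM, mostly PMEL (90 and 105 counts). Immune markers were at 57.0 and 59.8 CPM, nearly all CD68, with PTPRC at 1 and 0 counts.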

How the data were processed

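Poly(A) RNA of 2 pooled libraries was measured. The authors deposited estimated counts and TPM values per gene symbol. Per the submitters' processing notes, the tools were HISAT2 2.1.0, RSEM, fastp 0.20.0 and FastQC 0.11.9 on GRCh38. For RSEM, its version, annotation and strand mode were not given in the sources used here. Estimated counts were rounded (12 of the 81 measured members had fractional ones) and scaled with edgeR 4.0.16 TMM factors (0.999 and 1.00). Ratios carry exact 95% Clopper-Pearson intervals, and with 1000 counts in each library these reach 0.13 to either side on the log2 scale. The counts are of reads, not of tagged molecules, and intervals and floors hold counting error only. The rule was tried on simulated counts with planted folds and counting error only, which cannot show how it fares with spread between cultures. Older symbols were matched through RefSeq for 21 members. Coordinates came from GENCODE 29. Effective length is the estimated count per TPM, as the mean of both libraries, and its trend was cubic.

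Members and lists were chosen with earlier results of these data known. Named by rule were members past the 2-fold rule, the 3 highest and 3 lowest of complexes I, III, IV and V at 10 CPM or more, complex II, the most abundant of each complex, isoform groups, members without counts, and of each list up to 4 genes past the rule or the 2 with the highest TPM. Other genes were named after their values were seen. A gene that the rule names is not reported here singly, though counts and medians include it. Alternatives were scaling by upper quartile, by DESeq2 1.42.0 size factors or by total count, log2 TPM at pseudocounts of 1 and 0.1, other filters and folds, and removal of a length trend. A trend with GC content, and membership by function, were added after the data were seen. Intervals came from scipy 1.17.1 in Python 3.11.15, scaling from R 4.3.3, and figures from matplotlib 3.10.9.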

Additional observations from a re-analysis of the deposited data

How the results depend on the processing

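Total count, DESeq2 and upper quartile scaling kept the direction and the side of the limit of 52 genes followed singly. Those 52 leave out some genes named here, ATP5S and COX7C among them. Upper quartile scaling gave 9 lower members in place of 8, so a member outside the 52 passed the limit there. The number of lower members was 3 on TPM with a pseudocount of 1 and 3 with 0.1, 31 at 1.5-fold, 0 at 4-fold, 4 with the length trend removed and 4 with the length and GC trend removed. No setting gave a higher member. The median of the members was −0.0741 with the length trend removed and −0.0927 with length and GC removed. On TPM with pseudocounts of 1 and 0.1, the median was −0.1531 and −0.1556 for complex I, 0.0828 and 0.0836 for complex II, −0.5120 and −0.5127 for complex IV, and 0.2423 and 0.2436 for the complex I core. Complex II thus changed side on these scales, which were not centred. With the length trend removed, the median was −0.0212 for complex I, −0.0212 for its supernumerary subunits, 0.0619 for complex III and −0.2679 for complex IV. With length and GC removed it was −0.0303 for complex I, −0.0533 for its supernumerary subunits and −0.2958 for complex IV. CYCS passed the 2-fold rule with the length trend removed, at −1.06. C14orf2 and USMG5 have no GC value and no result with that trend. The cause of these differences was not tested. No paired analysis was possible because the labels carry no replicate numbers and each medium has 1 pooled library. Differences between cultures cannot be seen in pooled RNA, and precision is lowest for NDUFA4L2, ATP5J2-PTCD1 and COX6B2, which have the fewest counts among measured members.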
